A study of Mus musculus with 35 samples.

Results

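The chemokine and chemokine receptor genes described here, 55 in all, are those whose symbol is Ccl, Cxcl, Ccr, Cxcr or Ackr followed by a number, with Cx3cl1, Cx3cr1, Xcl1, Xcr1 and Ccrl2 added. They are 33 ligand and 22 receptor genes among the 18194 genes with a probe set of their own on the arrays. A gene was represented by its brightest probe set, and 35 of the 55 (24 ligands and 11 receptors) had a mean log2 signal of at least 5.273 over all arrays, the 40th percentile of all probe sets. These 35 were tested together with all other genes past that filter, 13005 in all. The 20 genes below it are described by their values further on. Ccl19 and Ccl21, whose probe sets list several near-identical genes, were not analysed here.

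Chemokines are small secreted or membrane-bound proteins that direct the movement of leukocytes, and they act through receptors coupled to inhibitory G proteins. The families are named for the spacing of their first cysteines (CC, CXC, C and CX3C), and atypical receptors bind chemokines without G protein signalling and remove them. In the kidney, chemokines are known to be made by tubular, glomerular, endothelial and immune cells, and the ligand Ccl2 with its receptor Ccr2 is much studied in diabetic kidney disease.

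The samples were whole kidneys of FVB/NJ mice, measured on 35 Affymetrix arrays. At 2 months of age there were 6 arrays from diabetic mice of the OVE26 line and 6 from control mice. At 4 months there were 7 diabetic and 4 control arrays, and at 8 months 6 diabetic and 6 control arrays. OVE26 mice overexpress calmodulin in their pancreatic beta cells and lack insulin from a young age, so the line models insulin-deficient diabetes, and the labels say of the other mice only that they are controls. The labels do not say that each array is a separate animal, so p-values measure the spread between arrays.

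The tubule genes Slc34a1, Lrp2, Umod and Slc12a1 had signals between 12.11 and 14.20 on every array. Array means differed by age (6.43 to 6.44 for the youngest mice, 6.02 to 6.04 for those in between, 6.54 for the oldest), so every difference is taken within an age. At 2 months, arrays numbered 5 and 6 in either group were set off by the first principal component, and control array 6 of that age had a 3′/5′ log2 ratio of beta-actin of 2.56, against at most 1.35 on the other arrays of any age. At 4 months control arrays 3 and 4 stood apart, with the clock gene Arntl at 7.84 and 8.17, against 6.21 or less on the others of that age. Arntl was also high on 2-month diabetic arrays 1, 5 and 6 (7.80, 7.88 and 8.28) and control array 6 (7.66). On 8-month diabetic array 5 it was 7.81. At 8 months diabetic array 3 lay farthest from the controls on the first component. Several, but not all, of the calls that change without these arrays are named where the gene is described.

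Values are log2 signals of a probe set. They can be compared between arrays and not between probe sets. A difference is the diabetic mean minus the control mean with the standard error (SE) of a limma model over all 35 arrays. That SE uses an estimate of each gene's spread shared by all 6 groups. The SE and its p can be too small where the 8-month diabetic arrays spread more widely than the rest. The median SD of the 35 genes tested was 0.382 there and 0.123 to 0.213 in the other groups. A gene is called higher or lower when its Benjamini-Hochberg adjusted p from the two-sided test, taken across all 13005 genes, is under 0.05.

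Many chemokine genes were higher in the oldest diabetic kidneys, and a single one was called in the younger mice. At 8 months 15 of the 35 tested genes were called higher and 2 lower, where 9.87% of all genes tested were called higher and 6.95% lower. The median difference of the 35 was 0.33, against 0.00 over all genes. At 4 months 1 gene, Cxcl10, was called higher (0.415% of all genes) and 0 lower (0.554%), with medians of 0.06 for the family and 0.01 for all genes. Of all calls at 4 months 42.9% were higher, and 55.0% after quantile normalization or 55.2% after scaling of the arrays. At 2 months 0 were called higher (0.754% of all genes) and 0 lower (1.78%), with medians of 0.03 and -0.01.

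At an unadjusted p under 0.05, 0 of the 35 were higher and 3 lower at 2 months, where 5.54% and 9.7% of all genes were. There were 7 higher and 2 lower at 4 months (5.58% and 5.78% of all genes), then 17 higher and 4 lower at 8 months (16.2% and 12.4%). Of the 24 ligands tested at 8 months 13 rose and 2 fell, and of the 11 receptors 2 rose and 0 fell. Over all genes tested 9.87% were called higher and 6.95% lower at that age. Ccl17, Ccl2, Ccl8 and Xcl1 passed the filter only with the 8-month diabetic arrays in the mean. The calls of Ccl17, Ccl2 and Ccl8 in this filtered fit, and their part in the counts, are therefore no support on their own. They were also called at 8 months when all 18194 genes were tested with no filter. The plot of differences by age shows all 35 genes.

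**Figure D1:**
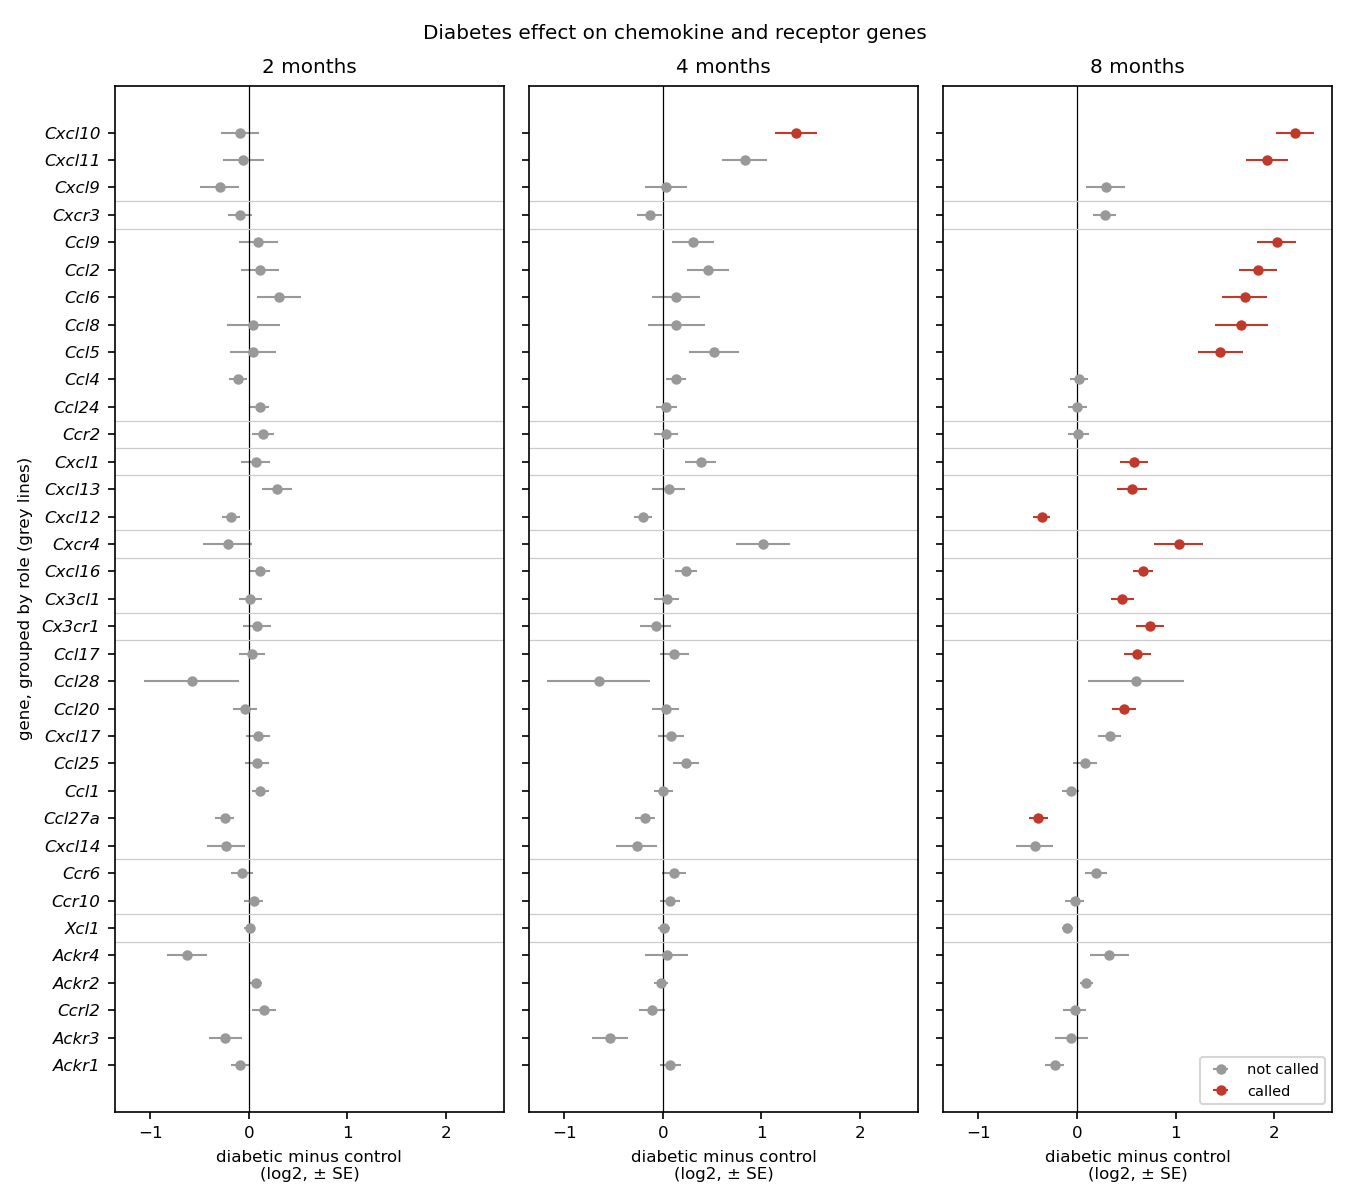
Difference between diabetic and control kidneys in log2 signal (horizontal axis, diabetic minus control, with the SE of the limma model) for the 35 chemokine and receptor genes tested, with a panel for each age (2, 4 and 8 months). Grey lines separate roles, red points are called genes and grey points are not. At 2 months no gene is red, at 4 months Cxcl10 alone, and at 8 months 15 genes to the right of 0 and 2 to the left.

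In 8 of the 35 genes tested (22.9%) every diabetic array was above every control array at 8 months: Cxcl10, Cxcl11, Ccl2, Ccl9, Ccl6, Cxcl16, Cx3cr1 and Cxcr4. All 8 are among the 15 called higher. Of all genes tested 5.41% were separated in this way. Ccl2 passed the filter only with the 8-month diabetic arrays in the mean. In the other direction Cxcl12 was separated, 1 of 35 against 4.28% of all genes. At 4 months Cxcl10, Cxcl11, Cxcl16 and Cxcr4 were separated upward (2.37% of all genes) and 0 genes downward (2.44%). At 2 months 0 genes were separated in either direction, where 0.538% of all genes were separated upward and 0.961% downward. These counts hold for the brightest probe set of each gene.

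Among the CXC ligands induced by interferon, Cxcl10 and Cxcl11 rose and Cxcl9 did not pass the test. All 3 attract activated T cells and NK cells through the receptor Cxcr3. On the 8-month diabetic arrays Cxcl10 had a lowest signal of 7.21, a median of 8.32 and a highest of 8.98, against 5.71, 6.00 and 6.44 on the control arrays. The lowest diabetic array was therefore above all control arrays, and the difference was 2.21 ± 0.20, or 4.63-fold (adjusted p = 1.33e-09, limma).

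At 4 months Cxcl10 ran from 6.84 through a median of 7.18 to 7.98 on the 7 diabetic arrays, against 6.07, 5.89, 5.97 and 5.64 on the 4 control arrays. Again no control array reached a diabetic one, and the gene was 2.55-fold higher (1.35 ± 0.21, adjusted p = 0.000864, limma). Without control arrays 3 and 4 the difference was 1.26, which was not called (adjusted p = 0.119, limma). At 2 months the groups overlapped, with 6.32, 6.62 and 7.00 on diabetic arrays and 6.37, 6.76 and 6.95 on control arrays.

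Cxcl11 followed the same order of ages. At 8 months its lowest, median and highest diabetic signals were 7.32, 8.22 and 8.61, against 5.80, 6.12 and 6.50 in controls. The groups did not overlap, and the difference was 1.93 ± 0.21, or 3.80-fold (adjusted p = 6.44e-08, limma). At 4 months the groups met at 5.93 without overlap (5.93, 6.36 and 7.01 on diabetic arrays, against 5.43, 5.61, 5.93 and 5.77 on control arrays), but the difference of 0.83 ± 0.23 was not called (adjusted p = 0.0728, limma). It was called under 2 of 9 other ways to process the values, with only the arrays of that age or with array weights. Its adjusted p reached 0.377 across all settings (limma). RefSeq lists Cxcl11 of the C57BL/6J reference as a transcribed pseudogene, and the mice here were FVB/NJ.

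Cxcl9 had a median of 6.26 on the 8-month diabetic arrays and 5.75 on the control arrays. Diabetic array 5 had the lowest value of all at 4.84, so the groups overlapped, and the difference of 0.29 ± 0.20 was not called (adjusted p = 0.348, limma). At 2 months Cxcl9 had a difference of -0.30 ± 0.20, not called either. The receptor Cxcr3 averaged 6.12 ± 0.38 in diabetic and 5.84 ± 0.13 in control kidneys at 8 months (SD, n = 6 each). Its difference of 0.28 ± 0.12 was not called (adjusted p = 0.103, limma).

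The promoter windows of 3 members that rose are printed because they carry matches to motifs read by interferon and NF-kappaB factors. Each runs from 250 bases before to 50 bases after the transcription start in RefSeq's annotation of GRCm38.p6, is written 5′ to 3′ on the gene's strand, and has the matches in capitals. The windows are chr5:92348840-92349139 on the minus strand for Cxcl10, chr5:90890995-90891294 on the plus strand for Cxcl1, and chr11:83578587-83578886 on the minus strand for Ccl9.
Cxcl10: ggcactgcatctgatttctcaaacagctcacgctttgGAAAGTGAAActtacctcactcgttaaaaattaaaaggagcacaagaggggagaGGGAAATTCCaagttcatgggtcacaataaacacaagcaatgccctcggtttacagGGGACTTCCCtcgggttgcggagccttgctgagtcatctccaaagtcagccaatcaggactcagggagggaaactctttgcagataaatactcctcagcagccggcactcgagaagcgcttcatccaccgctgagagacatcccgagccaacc
Cxcl1: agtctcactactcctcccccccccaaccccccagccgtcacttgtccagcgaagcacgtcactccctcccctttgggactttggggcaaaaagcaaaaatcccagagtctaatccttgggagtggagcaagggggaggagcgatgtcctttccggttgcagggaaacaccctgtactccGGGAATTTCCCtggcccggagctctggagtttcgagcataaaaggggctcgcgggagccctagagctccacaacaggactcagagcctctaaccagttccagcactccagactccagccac
Ccl9: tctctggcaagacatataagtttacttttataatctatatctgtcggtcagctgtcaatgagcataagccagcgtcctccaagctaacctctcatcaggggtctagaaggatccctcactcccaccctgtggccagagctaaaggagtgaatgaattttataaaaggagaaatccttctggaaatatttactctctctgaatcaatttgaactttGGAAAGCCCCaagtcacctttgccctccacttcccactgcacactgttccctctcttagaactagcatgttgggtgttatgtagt

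Windows were found for 42 of the 55 genes, and for 13 of the 17 called at 8 months. Both strands were searched for the interferon-stimulated response element, spelled GAAANNGAAA, and for the NF-kappaB consensus known as the kappaB motif. In the Cxcl10 window the interferon element began 213 bases before the start, and kappaB matches began 159 and 103 bases before it. Cxcl1 had kappaB matches on both strands that overlapped each other, 71 and 70 bases before the start, and Ccl9 a match on the opposite strand 35 bases before it.

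The interferon element stood in 2 of the 42 genes (Cxcl10 and Cxcl14), 1 of the 13 called. Per window it stood in 2 of 48 of the family (4.17%) and in 3.44% of all 32851. The kappaB motif stood in 11 of the 42 genes, 5 of the 13 called (Cxcl10, Cxcl1, Ccl9, Ccl20 and Ccl27a). Some genes have several windows, and per window it stood in 11 of 48 of the family (22.9%) and in 4.51% of all. A match is a description of the letters and not a site of binding.

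The inflammatory CC ligands held the most genes that rose, 5 of 7 tested at 8 months, where 9.87% of all genes were called higher. They were Ccl9, Ccl2, Ccl6, Ccl8 and Ccl5, between 2.74-fold and 4.07-fold higher. Of these, Ccl2 and Ccl8 passed the filter only with the 8-month diabetic arrays in the mean. The 2 others, Ccl4 (0.02 ± 0.09) and Ccl24 (0.00 ± 0.10), were not called. None of the 7 was called at 2 or 4 months, where the differences lay between -0.11 and 0.52.

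Ccl2, the monocyte attractant that binds Ccr2, had a lowest signal of 6.34, a median of 6.94 and a highest of 8.49 on the 8-month diabetic arrays, against 4.99, 5.27 and 5.47 on the control arrays. The highest diabetic value was that of array 3, and even the lowest lay above all controls. The difference was 1.84 ± 0.20, or 3.57-fold (adjusted p = 4.21e-08, limma). Ccl2 averaged 5.41 over all arrays and 5.07, below the filter, without the 8-month diabetic arrays. At 4 months the groups touched, with 4.17 as the lowest diabetic and as the highest control value, and the difference of 0.46 ± 0.21 was not called.

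Ccl9 and Ccl6 are CC ligands of mice that bind Ccr1 and are made by myeloid cells. Ccl9 had 7.23, 7.89 and 9.41 as its lowest, median and highest diabetic signals at 8 months, against 5.90, 5.98 and 6.43 in controls. It was 4.07-fold higher without overlap (2.02 ± 0.20, adjusted p = 7.79e-09, limma). For Ccl6 the corresponding values were 7.80, 8.32 and 9.82 in diabetic and 6.41, 6.84 and 6.99 in control kidneys. It was also separated, at 1.70 ± 0.23 or 3.25-fold (adjusted p = 1.61e-06, limma). In both genes array 4 was the lowest diabetic array and array 3 the highest.

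Ccl8 and Ccl5 rose as well, but their groups overlapped because of a single diabetic array. Ccl8, known in mice as a ligand of Ccr8, spanned 5.86 to 9.23 with a median of 7.64 on diabetic arrays, against 5.78 to 6.14 with a median of 6.02 on control arrays. Its diabetic SD of 1.16, against 0.13 in controls, was larger than that of any other of the 15 genes called higher. The difference was 1.67 ± 0.27 (3.17-fold, adjusted p = 3.04e-05, limma). Under other ways to process the values its adjusted p rose to at most 0.0143 (limma). Ccl8 averaged 5.67 over all arrays and 5.26, below the filter, without the 8-month diabetic arrays.

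Ccl5, also called RANTES, attracts T cells and monocytes. Its lowest, median and highest diabetic signals were 6.19, 7.62 and 8.53, against 5.91, 6.01 and 6.47 in controls. It differed by 1.46 ± 0.23 (2.74-fold, adjusted p = 2.24e-05, limma). In Ccl8 and Ccl5 alike, diabetic array 5 was the one that lay among the controls.

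**Figure D2:**
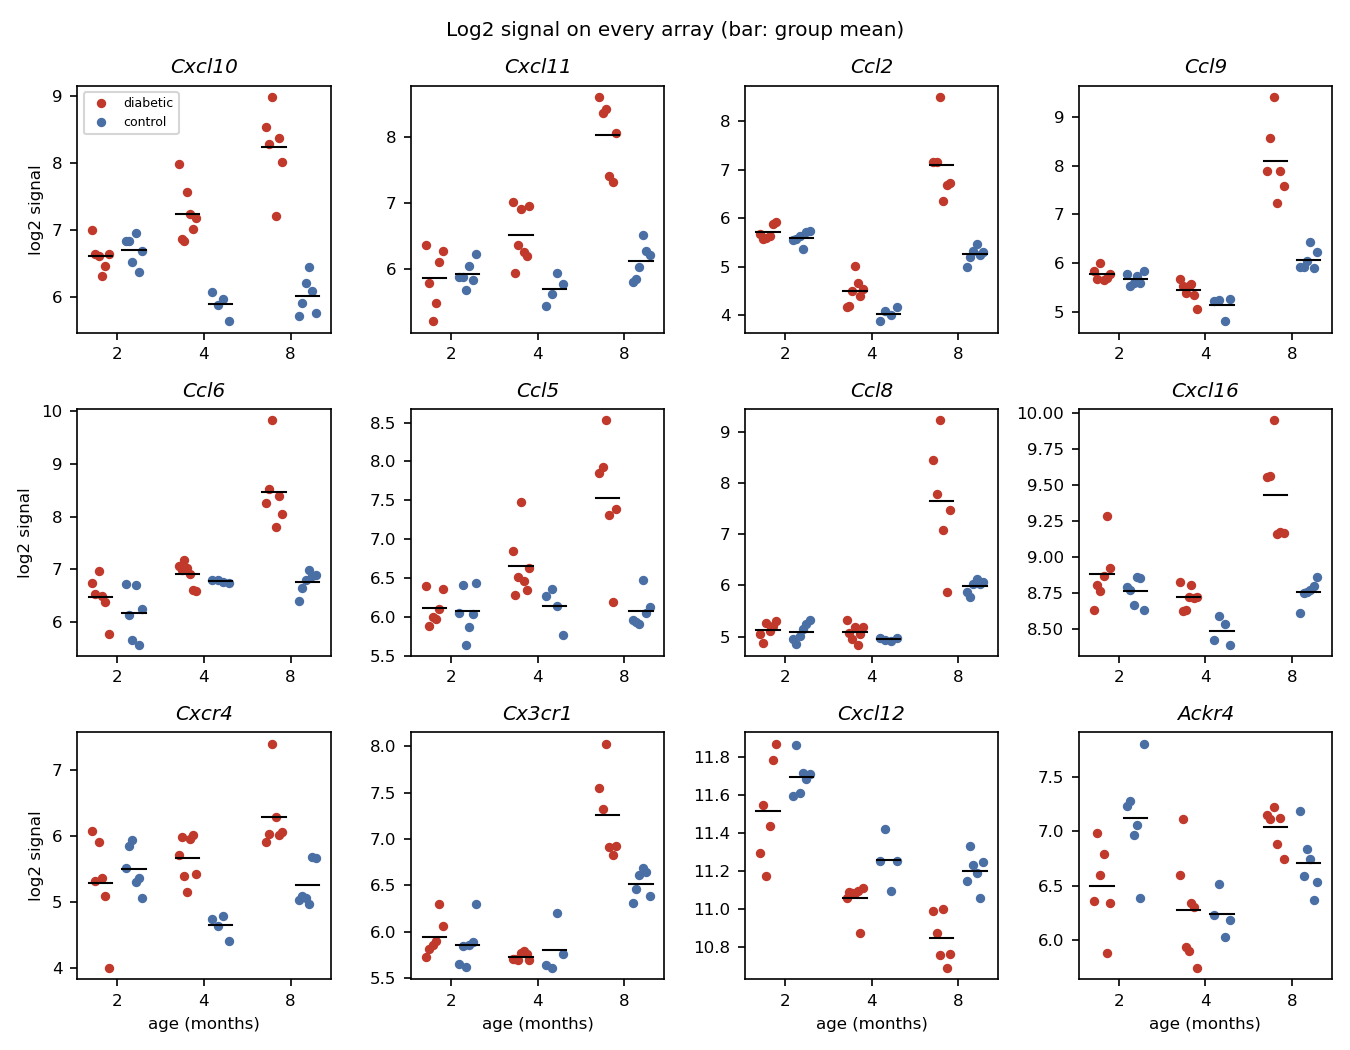
Log2 signal (vertical axis) of 12 genes of the family on every array, by age in months (horizontal axis), with diabetic arrays in red to the left of control arrays in blue and black bars at group means. At 8 months the red points lie above all blue points in Cxcl10, Cxcl11, Ccl2, Ccl9, Ccl6, Cxcl16, Cxcr4 and Cx3cr1, and below them in Cxcl12, while in Ccl5 and Ccl8 a single red point lies among the blue ones.

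The receptors of these ligands gave a mixed picture that turned on the probe set. Ccr2, the receptor of Ccl2 on monocytes, was read by its brightest probe set, with 6.62, 6.79 and 7.11 in diabetic and 6.54, 6.83 and 7.08 in control kidneys at 8 months. The groups overlapped fully and the difference was 0.01 ± 0.11 (adjusted p = 0.956, limma). The other 3 probe sets of Ccr2 had diabetic medians of 7.13, 6.47 and 6.33, against control medians of 6.15, 5.78 and 5.14.

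From the brighter to the dimmer these 3 differed by 0.82, 0.69 and 1.11, and each kept some overlap. The first of them alone passed the filter, and it was called when all 23014 probe sets past the filter were tested (adjusted p = 0.000382, limma). It too passed only with the 8-month diabetic arrays in the mean (5.43 with them and 5.11 without), so that call is no support for a change of Ccr2. Which transcripts each probe set reads was not tested. Ccr1, the receptor of Ccl9 and Ccl6, was below the filter, as were Ccr3 and Ccr1l1.

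**Figure D3:**
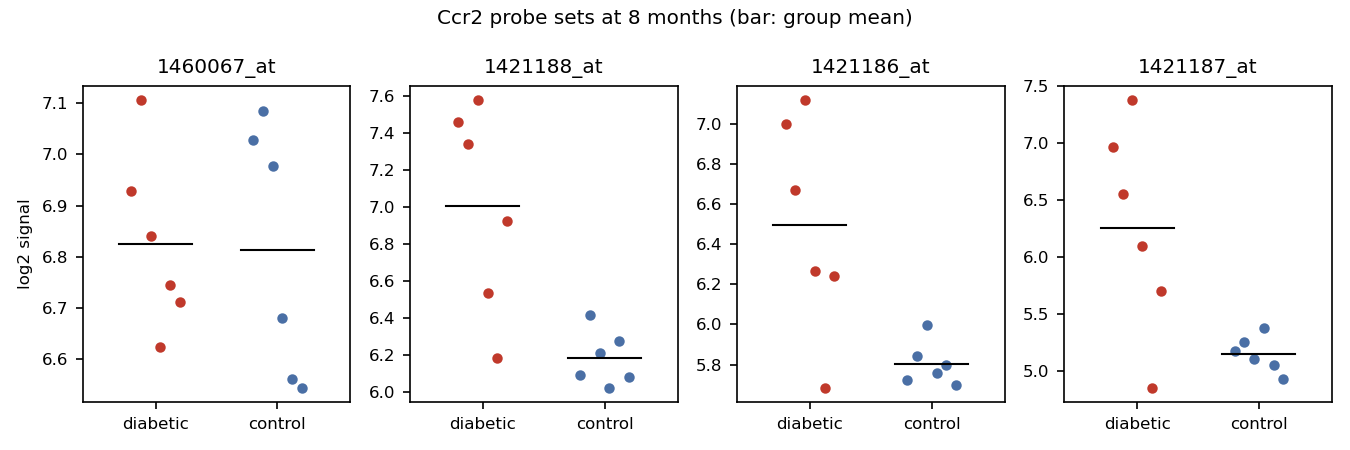
Log2 signal (vertical axes, each with its own range) of the 4 probe sets of Ccr2 on the 8-month arrays, with 6 diabetic arrays in red on the left, 6 control arrays in blue on the right and bars at group means. Panels run from the brightest probe set on the left, where the groups cover the same range, to the dimmest, and in the other 3 most red points lie above the blue ones.

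Of the CXC ligands that attract neutrophils through Cxcr2, Cxcl1 alone passed the filter. It rose at 8 months, with 7.14, 7.76 and 8.18 as lowest, median and highest signals in diabetic kidneys, against 7.02, 7.13 and 7.44 in control kidneys. Diabetic array 4 lay among the controls, and the difference was 0.58 ± 0.14, or 1.49-fold (adjusted p = 0.00451, limma). The size depended on the probe set. The one used is of an Affymetrix type that can also match other sequences, and 2 dimmer ones gave 0.98 ± 0.27 and 2.04 ± 0.47, both called and both without overlap. The dimmest of the 3 also passed the filter only with the 8-month diabetic arrays. At 4 months diabetic array 7 stood out at 8.34, where the other 6 had at most 7.65, and the difference of 0.39 ± 0.16 was not called.

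Ligands and receptors of lymphoid tissue moved in both directions. Cxcl13, which attracts B cells through Cxcr5, had 6.48, 7.06 and 7.45 as its lowest, median and highest diabetic signals at 8 months, against 6.26, 6.39 and 6.66 in controls. Diabetic arrays 4 and 6 lay among the controls, and the difference was 0.56 ± 0.15 (1.47-fold, adjusted p = 0.00955, limma). A dimmer probe set of Cxcl13 differed by 1.26 ± 0.26. At 2 months that probe set differed by 0.71 ± 0.26 without overlap, not called across all probe sets past the filter (adjusted p = 0.188, limma).

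Cxcl12, a ligand made by stromal and epithelial cells that binds Cxcr4 and Ackr3, fell. At 8 months it ran from 10.69 through 10.81 to 11.00 in diabetic kidneys, against 11.06, 11.21 and 11.33 in control kidneys. No diabetic array reached the lowest control, and the difference was -0.36 ± 0.09, or 0.78-fold (adjusted p = 0.00338, limma). With the mean of all its probe sets the difference was -0.25, which was not called (adjusted p = 0.0573, limma). Its next brightest probe set gave -0.24 ± 0.12 with overlap, not called across all probe sets past the filter (adjusted p = 0.215, limma). In RNA from a whole organ, fewer cells that express a gene and less RNA per cell cannot be told apart.

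Cxcl12 also had negative differences in the younger mice, -0.18 ± 0.09 at 2 months and -0.20 ± 0.09 at 4 months, neither of them called. Without arrays 5 and 6 of 2 months the difference at that age was -0.34 and was called (adjusted p = 0.0269, limma). The 2-month difference was called under 2 of 12 other ways to process the values. Its adjusted p reached 0.7 across all settings (limma). Tubule genes fell at 8 months too.

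The receptor Cxcr4 rose. Its lowest, median and highest signals at 8 months were 5.92, 6.05 and 7.40 in diabetic kidneys, against 4.97, 5.08 and 5.68 in controls. The groups were separated, and array 3 stood well above the other 5 diabetic arrays, which reached at most 6.29. The difference was 1.03 ± 0.25, or 2.05-fold (adjusted p = 0.00322, limma). At 4 months Cxcr4 had 5.16, 5.72 and 6.02 on diabetic arrays, against 4.75, 4.64, 4.79 and 4.42 on control arrays. That difference was of similar size, 1.02 ± 0.27, and stood just outside the threshold (adjusted p = 0.0587, limma). It was called under 2 of 10 other ways to process the values, with the arrays of that age alone or with array weights. Across all settings, with fits that left out 1 array, its adjusted p reached 0.766 (limma).

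The membrane-anchored ligands rose, and so did one receptor for them. Cxcl16, a ligand of Cxcr6 that is also a scavenger receptor for oxidised lipoprotein, had 9.16, 9.36 and 9.95 in diabetic kidneys at 8 months, against 8.62, 8.77 and 8.86 in control kidneys. Its arrays were separated and the difference was 0.67 ± 0.10, or 1.59-fold (adjusted p = 1e-05, limma). Its other probe set gave 0.98 ± 0.12. At 4 months Cxcl16 was separated too, with 8.63 to 8.83 on diabetic arrays against 8.39 to 8.59 on control arrays, but the difference of 0.24 ± 0.11 was not called.

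Cx3cl1, or fractalkine, had 8.83, 9.08 and 9.62 as its lowest, median and highest diabetic signals at 8 months, against 8.34, 8.65 and 9.06 in controls. The groups overlapped, and the difference was 0.46 ± 0.12, or 1.37-fold (adjusted p = 0.00497, limma). With the mean of its 4 probe sets the difference was 0.18, which was not called (adjusted p = 0.102, limma). Its next brightest probe set gave 0.27 ± 0.12, not called across all probe sets past the filter (adjusted p = 0.147, limma).

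Its receptor Cx3cr1, carried by monocytes and tissue macrophages, had 6.82, 7.12 and 8.03 in diabetic kidneys at 8 months, against 6.31, 6.54 and 6.69 in control kidneys. These arrays were separated, and the gene was 1.68-fold higher (0.74 ± 0.14, adjusted p = 0.000296, limma).

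Of the ligands of T helper and mucosal cells 2 of 8 tested were higher and 1 lower at 8 months. Over all genes tested 9.87% were called higher and 6.95% lower, so these small counts are not read as a trait of the role. Ccl17, a ligand of Ccr4 made by dendritic cells, ran from 5.39 through 5.84 to 6.72 in diabetic kidneys, against 5.24, 5.36 and 5.54 in controls. Array 5 was again the lowest and array 3 the highest, with overlap at the low end (0.61 ± 0.14, 1.53-fold, adjusted p = 0.00144, limma). Ccl17 averaged 5.31 over all arrays and 5.17, below the filter, without the 8-month diabetic arrays.

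Ccl20, the ligand of Ccr6, had 5.24, 5.67 and 6.35 as its lowest, median and highest diabetic signals at 8 months, against 5.16, 5.33 and 5.42 in controls. It was 1.39-fold higher with overlap (0.47 ± 0.12, adjusted p = 0.0059, limma), and the call was lost when only the 8-month arrays were fitted (adjusted p = 0.0595, limma).

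Ccl27a, an epithelial ligand of Ccr10, fell. Its lowest, median and highest signals at 8 months were 6.58, 6.74 and 7.07 in diabetic kidneys, against 7.02, 7.17 and 7.32 in control kidneys. Array 4 alone among the diabetic arrays exceeded the lowest control, and the difference was -0.39 ± 0.10, or 0.76-fold (adjusted p = 0.00343, limma). Near-identical copies of this gene exist in the mouse genome, and a probe set may not separate them.

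Several genes of the family fell short of the threshold. Ccl28, the other ligand of Ccr10, spread widely in both groups at 8 months, 9.99 ± 0.82 in diabetic and 9.39 ± 1.24 in control kidneys (SD, n = 6 each), and its difference of 0.60 ± 0.49 was not called. Cxcl17, a mucosal ligand, differed by 0.33 ± 0.12 with an adjusted p of 0.0512 in the limma fit. Cxcl17 was called under 4 of 13 other ways to process the values. Among them were same-numbered arrays as pairs (adjusted p = 0.0271, limma) and the fit without the 2-month arrays 5 and 6 (adjusted p = 0.0365, limma). Its adjusted p reached 0.186 across all settings (limma). Cxcl14, an epithelial ligand, differed by -0.43 ± 0.19 (adjusted p = 0.127, limma), and without diabetic array 3 by -0.57, which was called (adjusted p = 0.0354, limma). It was also called with array weights, 1 of 13 other ways to process the values, and its adjusted p reached 0.434 across all settings (limma). Ccr6 (0.20 ± 0.11), Ccr10 (-0.02 ± 0.09), Ccl25 (0.08 ± 0.12) and Ccl1 (-0.06 ± 0.09) were not called. Ccl25, a thymic and gut ligand of Ccr9, had 0.24 ± 0.13 at 4 months, also not called. Xcl1, the C ligand of NK and T cells, had -0.10 ± 0.06.

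None of the 5 atypical receptors was called at any age. Ackr4, which scavenges Ccl19, Ccl21 and Ccl25, came closest at 2 months. Its lowest, median and highest signals were 5.88, 6.48 and 6.98 in diabetic kidneys, against 6.38, 7.14 and 7.81 in controls, with overlap. The difference was -0.63 ± 0.20 (adjusted p = 0.0852, limma), and with same-numbered arrays as pairs it was called (adjusted p = 0.0217, limma). That was 1 of 12 other ways to process the values, and the adjusted p reached 0.295 across all settings (limma).

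At 8 months Ackr4 stood at 6.75, 7.12 and 7.22 in diabetic and 6.37, 6.67 and 7.19 in control kidneys, a difference of 0.33 ± 0.20. Ackr3, a scavenger of Cxcl12, had its largest difference at 4 months (-0.54 ± 0.18, adjusted p = 0.187, limma). Ackr1, which binds chemokines on red cells and venules, had -0.22 ± 0.10 at 8 months (adjusted p = 0.117, limma). It was called without the 2-month arrays 5 and 6 (adjusted p = 0.0418, limma), 1 of 12 other ways to process the values. Its adjusted p reached 0.369 across all settings (limma). Ackr2 (0.10 ± 0.06) and Ccrl2 (-0.02 ± 0.12) showed no call.

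The change of the diabetes effect with age was tested directly. Between 2 and 8 months 10 of the 35 genes had an effect that was higher at 8 months and 0 one that was lower, where 3.01% and 0.877% of all genes had such calls. Cxcl10 had the largest such change, 2.30 ± 0.28 (adjusted p = 3.66e-06, limma), followed by Cxcl11 (1.98 ± 0.30), Ccl9 (1.93 ± 0.28), Ccl2 (1.72 ± 0.28) and Ccl8 (1.62 ± 0.38). Of these, Ccl2 and Ccl8 passed the filter only with the 8-month diabetic arrays in the mean. Ccl5 (1.41 ± 0.33), Ccl6 (1.39 ± 0.32), Cxcr4 (1.24 ± 0.35), Ackr4 (0.96 ± 0.28) and Cxcl16 (0.55 ± 0.14) made up the 10. Ackr4 is among them although neither of its effects was called alone, and its call (adjusted p = 0.0471, limma) was lost under 7 of 12 other ways to process the values and in 24 of 35 fits that left out 1 array. The change of Cxcr4 (adjusted p = 0.0397, limma) was lost under 2 of 11, and in 10 of 35 such fits. Without the 2-month arrays 5 and 6 the changes were 1.02 for Cxcr4 and 0.78 for Ackr4, neither called (adjusted p = 0.0643 and 0.0789, limma). With same-numbered arrays as pairs, Cxcl1 and Ccl20 were also called (adjusted p = 0.0358 and 0.0399, limma).

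Between 4 and 8 months Ccl9 (1.72 ± 0.29, adjusted p = 0.00236, limma), Ccl6 (1.57 ± 0.33) and Ccl2 (1.38 ± 0.29) had higher effects at 8 months, 3 of 35 against 0.738% of all genes, and 0 were lower (0.138%). All 3 calls were lost with same-numbered arrays as pairs within an age, with adjusted p from 0.0544 to 0.101 in that limma fit. Without control arrays 3 and 4 of 4 months, Ccl2 and Ccl6 were not called (adjusted p = 0.11 and 0.102, limma). Ccl2 also passed the filter only with the 8-month diabetic arrays in the mean. Without the 2-month arrays 5 and 6, Ccl8 and Cx3cr1 were called as well (adjusted p = 0.0485 and 0.0289, limma). Between 2 and 4 months 0 effects were called higher (0% of all genes) and 0 lower (0%), with 4 of the 35 genes higher and 0 lower at an unadjusted p under 0.05 (3.23% and 1.85% of all genes). Cxcl10 had the smallest adjusted p of these, 0.117, with a change of 1.44 ± 0.29 in the limma fit.

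The 8-month diabetic kidneys differed among themselves. In all 15 genes that rose the SD was larger among diabetic than among control arrays, and the median SD of the 35 genes was 0.382 in diabetic and 0.157 in control kidneys (0.156 and 0.110 over all genes). Array 3 had the highest signal in 14 of the 15 and array 1 in the other, Cxcl11. Arrays 4 and 5 were lowest in 7 and 6 of them. The median difference of the 15 from the control mean was 1.04, 1.16, 2.15, 1.02, 0.47 and 0.81 on diabetic arrays 1 to 6, so array 3 carried the largest response and array 5 the smallest.

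Without array 3 all 17 genes called at 8 months were still called, with Cxcl14 added as lower. Cxcl10 was then 4.18-fold higher, Ccl9 3.39-fold, Ccl2 2.94-fold, Ccl6 2.70-fold and Ccl8 2.55-fold, and Cxcr4 1.75-fold.

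**Figure D4:**
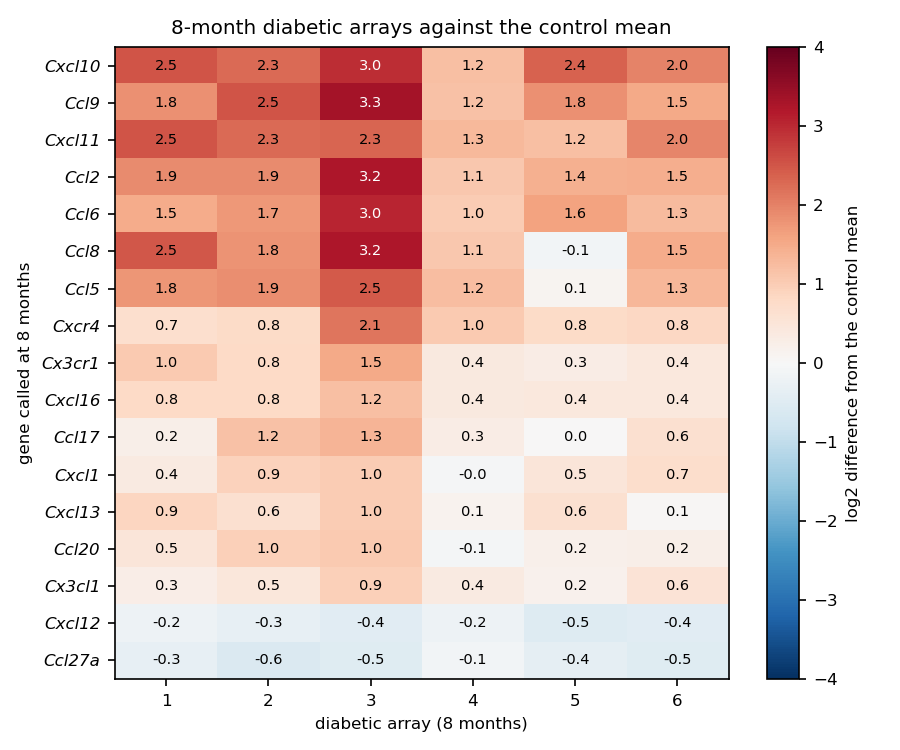
Log2 difference from the mean of the 6 control arrays (colour and printed value) for the 17 genes called at 8 months (rows) on the 6 diabetic arrays (columns 1 to 6). Column 3 is the darkest red in 14 of the 15 genes that rose, columns 4 and 5 are the palest in most, and the 2 genes that fell are blue in all columns.

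Markers of immune cells moved with these genes at 8 months, when 9.87% of all genes tested were called higher and 6.95% lower. Of 11 macrophage and monocyte markers tested at 8 months 10 rose and 0 fell, with a median of 1.52. The 3 with the smallest p were Lyz2 (2.69 ± 0.23), Cd68 (2.35 ± 0.21) and Ms4a7 (2.10 ± 0.19), while Csf1r had -0.11 ± 0.09. The mean signal of the list was between 8.14 and 9.57 on diabetic arrays, against 7.07 to 7.50 on control arrays, without overlap. By diabetic array it was 8.85, 8.76, 9.57, 8.16, 8.14 and 8.33, so array 3, with the highest chemokine signals, also had the highest macrophage signal. The part of these cells in the chemokine differences was not tested.

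B cell and plasma cell markers rose in 4 of 6, with list means of 7.31 to 8.59 on diabetic and 7.02 to 7.36 on control arrays, which overlapped slightly. The 4 were Ighm (2.52 ± 0.21), Jchain (1.41 ± 0.34), Mzb1 (1.28 ± 0.15) and Cd79a (0.56 ± 0.13). Pax5 (-0.17 ± 0.07) and Xbp1 (0.22 ± 0.10) were not called, and Cd79b and Ms4a1 were below the filter. T cell markers rose in 3 of 5 with a median of 0.36, and their list means overlapped (5.30 to 6.16 on diabetic, 5.27 to 5.50 on control arrays). Dendritic cell markers rose in 2 of 5, Itgax and H2-DMb2. None of 3 NK cell markers and none of 5 endothelial markers was called.

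Of the 8 neutrophil markers, S100a8, S100a9, Mpo and Camp were below the filter, and the 2 tested were not called. The mean of the 6 measured markers was 5.52 to 5.89 on diabetic arrays, above 5 of the 6 control arrays (5.27 to 5.41) and below control array 5 (6.15). At 2 and 4 months 0 markers of any immune list were called. Markers of the proximal tubule fell at 8 months in 4 of 4, with a median of -0.48, and those of the thick limb in 2 of 2. The thick limb marker Umod was also called lower at 2 months (-0.19 ± 0.05, adjusted p = 0.0421, limma). The podocyte marker Nphs1, which encodes nephrin, fell at 8 months too (-0.61 ± 0.12, adjusted p = 0.000577, limma). Their part in the lower Cxcl12 and Ccl27a was not tested.

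**Figure D5:**
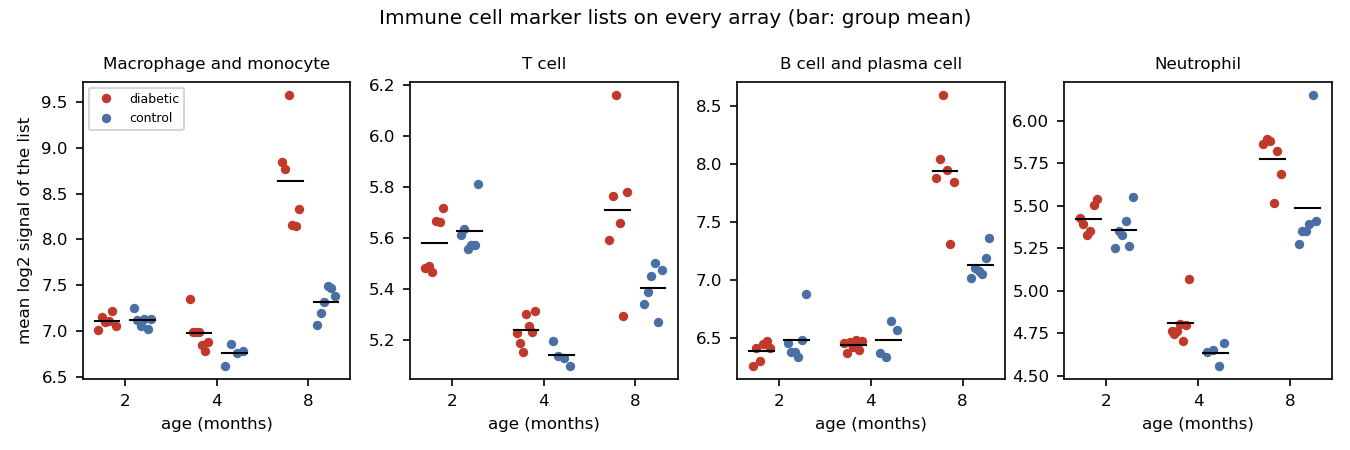
Mean log2 signal (vertical axis) of the measured markers of 4 immune cell lists on every array, by age in months (horizontal axis), diabetic arrays in red to the left of control arrays in blue, bars at group means. At 8 months the macrophage and monocyte means of diabetic arrays (8.14 to 9.57) lie above all control means (7.07 to 7.50), while the T cell means overlap, and the neutrophil means (5.52 to 5.89 on diabetic arrays) overlap through 1 control array at 6.15, the other 5 lying at 5.27 to 5.41.

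Genes that act before and after the chemokines were read from lists. Of all genes tested at 8 months 9.87% were called higher and 6.95% lower. Among cytokines and receptors that drive chemokine genes 4 of 11 tested rose at 8 months and 0 fell, with a median of 0.22. All 4 were receptors, and the 3 with the smallest p were the TNF receptors Tnfrsf1b (0.72 ± 0.10) and Tnfrsf1a (0.28 ± 0.06) and the interferon receptor Ifnar1 (0.33 ± 0.08). Of the cytokines themselves, chosen for mention after their values were seen, Tnf had -0.02 ± 0.10 and Il1b 0.02 ± 0.11. Il1a, Il6, Ifng, Il17a, Ifnb1, Lta and Ltb were below the filter.

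Of 16 NF-kappaB, IRF and STAT genes 9 rose and 0 fell, with a median of 0.49. They were led by the inhibitor Nfkbie (0.95 ± 0.13), the subunit Relb (0.97 ± 0.15) and Tnfaip3 (0.94 ± 0.14), which encodes the feedback inhibitor A20. Nfkbie and Tnfaip3 are themselves known targets of NF-kappaB.

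Among adhesion genes 5 of 7 rose. Vcam1 (2.02 ± 0.25) and Icam1 (1.09 ± 0.16) hold leukocytes on endothelium and are also made by injured tubules, and Itgb2 (1.22 ± 0.15) is the shared chain of leukocyte integrins. In the list of chemokine processing and presentation 9 of 12 rose, with a median of 0.33. They were led by the proteoglycan Sdc1 (0.94 ± 0.15), the metalloproteinase Mmp14 (0.84 ± 0.17) and Ext1 (0.36 ± 0.08), which extends heparan sulfate. Hs3st1, also among the 9, averaged 5.30 over all arrays, close to the filter. Whether Hs3st1 passes it without the 8-month diabetic arrays was not examined, so its part in the count is no support on its own.

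In receptor signalling and migration 8 of 17 rose, with a median of 0.21. They included Rgs19 (0.74 ± 0.11), which ends G protein signals, the leukocyte GTPase Rac2 (0.87 ± 0.15) and the arrestin Arrb2 (0.50 ± 0.10). Among related genes outside the naming rule 2 of 6 rose, the chemerin gene Rarres2 (0.65 ± 0.12) and Cd74 (0.94 ± 0.24), the receptor of Mif. These pathway lists had 0 calls in either direction at 2 and 4 months, apart from 1 gene higher at 4 months among the related genes and 1 lower at 2 months among the NF-kappaB, IRF and STAT genes.

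The 20 genes below the filter had mean signals from 3.39 (Cxcl3) to 5.10 (Cxcr2) over all arrays. They were Ccl11, Ccl12, Ccl22, Ccl3, Ccl7, Ccr1, Ccr1l1, Ccr3, Ccr4, Ccr7, Ccr8, Ccr9, Cxcl15, Cxcl2, Cxcl3, Cxcl5, Cxcr2, Cxcr5, Cxcr6 and Xcr1. When all 18194 genes were tested with no filter, 6 of the 20 were called at 8 months, all higher, where 4.36% of all 5189 genes below the filter were called higher and 1.91% lower in that fit. At 2 months 0 of the 20 were called higher (0.0193% of those 5189) or lower (0.0385%), and at 4 months 0 higher (0.0385%) or lower (0.116%). At 8 months the differences of the 20 lay between -0.18 and 1.98.

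Ccl12, a mouse monocyte attractant that binds Ccr2, was the largest of these. It had 5.48, 6.80 and 7.85 in diabetic kidneys at 8 months, against 4.45, 4.66 and 5.18 in control kidneys, without overlap (1.98, adjusted p = 1.26e-07, limma). Cxcl2, a neutrophil attractant, had 4.93, 5.41 and 6.33 in diabetic and 4.18, 4.34 and 4.48 in control kidneys, also without overlap (1.17, adjusted p = 0.000169, limma). At 2 months their differences were -0.01 and 0.01.

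The other 4 overlapped. Ccr1 differed by 0.79 (adjusted p = 0.0169, limma), with 5.19, 6.00 and 7.44 in diabetic and 4.93, 5.27 and 5.86 in control kidneys. Cxcr6, the receptor of Cxcl16 on T cells, differed by 0.65, Ccl7, another ligand of Ccr2, by 0.46 and Ccl3, which binds Ccr1, by 0.38. The receptors Ccr7 (0.06), Cxcr5 (-0.09) and Cxcr2 (-0.08), of lymphocytes and neutrophils, were not called.

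Ligands and receptors did not always move together at 8 months. For Cxcl10 and Cxcl11 the receptor Cxcr3 was not called. For Ccl9 and Ccl6 the receptor Ccr1 rose only where dim genes were tested. For Ccl2 the answer depended on the probe set of Ccr2, and for Cxcl16 the receptor Cxcr6 rose only where dim genes were tested. The pair Cx3cl1 and Cx3cr1 rose on both sides, while Cxcl12 fell and Cxcr4 rose. The calls of Cx3cl1 and Cxcl12 also depended on the probe set.

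Chemokine genes lie in runs along the chromosomes, and genes of a run share surroundings. In RefSeq's order of gene starts, Ccl2, Ccl7, Ccl11, Ccl12, Ccl8 and Ccl1 are neighbours, and of the 3 tested 2 rose at 8 months. Those 2, Ccl2 and Ccl8, passed the filter only with the 8-month diabetic arrays in the mean. Over all genes tested 9.87% were called higher at that age. Of the run Ccl5, Ccl9, Ccl6, Ccl3 and Ccl4 4 were tested and 3 rose, all but Ccl4. Cxcl10 and Cxcl11 are neighbours and both rose, whereas Cxcl9, which lies close to them on the same chromosome, was tested and not called. In another run Cx3cl1 and Ccl17 rose beside Ccl22, which was below the filter. Ccl17 passed it only with the 8-month diabetic arrays in the mean. A run of 6 receptor genes, Cxcr6, Xcr1, Ccr1, Ccr1l1, Ccr3 and Ccr2, had 1 tested, Ccr2, which was not called.

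Other probe sets gave a further reading of the genes called at 8 months. There were 13, of which 12 had the sign of the probe set used and 5 were called with that sign, while 5 were below the filter. The exception was a dim probe set of Cx3cl1 at -0.07. Both Ccl6 probe sets and both Ccl9 probe sets were separated between the groups, the dimmer ones at 1.34 and 1.75.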

How the data were processed

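Total RNA (5 ug per array) from whole kidney was labelled with biotin and hybridised to Affymetrix arrays, per the labels' protocols. The deposited table holds log2 signals of 45101 probe sets on 35 arrays, a scale read from the range of the authors' values. No source used here gives the background correction or the normalization. Probe sets were named from the platform annotation (34958 with 1 gene, 932 with several, 9147 with none, 64 controls), and 34754 matched the reference table by gene identifier. Those with several genes were left out, among them 4 that list a gene of the family.

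Groups and contrasts were fitted with limma 3.58.1 on R 4.3.3, with version 1.17.8 of data.table, as 6 group means with 29 residual degrees of freedom. Arrays have no read depth, so their number limits the precision. After removal of group means, same-numbered arrays correlated in 6 of 6 cases at 2 months (r from 0.246 to 0.444). They did so in 1 of 4 at 4 months and 2 of 6 at 8 months. Correlations of arrays with different numbers were not examined, and 2-month arrays 5 and 6 stood apart in both groups. Whether the numbers mark pairs was therefore not tested, and the labels do not say so. No 2 arrays were identical. The test was tested on simulated data. Alternatives varied the filter, probe sets, scaling, arrays, weights and pairing. Named genes are all members, and up to 3 genes per pathway list with the smallest p at 8 months. The members and lists were chosen with earlier results of these data known.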

Additional observations from a re-analysis of the deposited data

Results flagged for a closer look

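In 17 genes of the family called at some age, 102 groups of arrays were screened for a single array far from the rest, and 7 were found, where chance flags about 1 in 20 groups. At 8 months diabetic array 3 stood apart at 9.82 for Ccl6 (the other 5 between 7.80 and 8.52) and at 7.40 for Cxcr4 (5.92 to 6.29). At 4 months diabetic array 2 stood apart at 7.52 for Cx3cl1 (7.95 to 8.13) and at 6.54 for Cxcl13 (6.09 to 6.27). Diabetic array 6 of that age was low for Cxcl12 at 10.87 (11.05 to 11.11), diabetic array 7 high for Cxcl1 at 8.34 (7.16 to 7.65), and control array 3 low for Ccl9 at 4.80 (5.22 to 5.26).

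The diabetes effect differed between ages, by a test of the difference itself, in 10 genes from 2 to 8 months. The log2 changes of the effect were 2.30 for Cxcl10, 1.98 for Cxcl11, 1.93 for Ccl9, 1.72 for Ccl2, 1.62 for Ccl8, 1.41 for Ccl5, 1.39 for Ccl6, 1.24 for Cxcr4, 0.96 for Ackr4 and 0.55 for Cxcl16. From 4 to 8 months they were 1.72 for Ccl9, 1.57 for Ccl6 and 1.38 for Ccl2. Of these genes Ccl2 and Ccl8 passed the filter only with the 8-month diabetic arrays in the mean.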

How the results depend on the processing

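Of the family, 17 genes were called at 8 months. Other settings gave 15 to 23, apart from the filter at the 60th percentile, which tests 13 of the genes and called 7. At 4 months 1 gene was called as reported, 3 with only the arrays of that age, 4 with array weights and 0 without control arrays 3 and 4. At 2 months 0 were called as reported and 1 with array weights, with the replicate block or without arrays 5 and 6. Effects that differed between 8 and 2 months numbered 10, and 3 with the 60th percentile filter. Those between 8 and 4 months numbered 3 as reported, 1 with the 60th percentile filter or without the 4-month control arrays 3 and 4, and 0 with the replicate block. That number was 5 with the mean of probe sets, every probe set, quantile normalization, and arrays 5 and 6 of 2 months as a batch or left out, and 7 with scaled arrays or array weights. Between 4 and 2 months 0 became 2 with array weights. Leaving out each array in turn gave 0 to 1 at 2 months, 1 to 2 at 4 months and 17 to 20 at 8 months. For the differences between ages it gave 0 to 1 (4 and 2 months), 8 to 14 (8 and 2) and 3 to 7 (8 and 4). No difference that was called changed sign. Over all genes, quantile normalization moved the share of calls that were higher at 4 months to 55.0%, from 42.9% as reported, and scaling to 55.2%. The calls over all genes numbered 330 at 2 months (64 to 1298 under other settings), 126 at 4 months (5 to 942) and 2187 at 8 months (up to 3401). The number of arrays and dim probe sets limit what can be seen.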
